A study of Homo sapiens with 6 samples.

Results

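RNA of genes in bone morphogenetic protein (BMP) signaling was measured by RNA-Seq in MRC5, a cell line of fibroblasts from human lung. Activity of the pathway was not measured, and the results are RNA levels of 9 genes. These are the ligand gene *BMP4*, the receptor genes *BMPR1A* and *BMPR2*, the pseudoreceptor gene *BAMBI*, the secreted antagonist gene *GREM1* and the target genes *ID1*, *ID2*, *ID3* and *ID4*. They were chosen by name, as the rows of the deposited count table whose identifiers carry these symbols in GENCODE. No measured value enters that rule, but the 9 names were chosen with earlier results of these data known. All 9, of 58676 gene identifiers in the table, had at least 10 counts summed over the 6 libraries and were tested.

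The fibroblasts were exposed for 24 h to conditioned media (CM) from a human alveolar epithelial type II (ATII) cell line whose RAS signaling is activated by 4-hydroxytamoxifen (4-OHT). ATII cells without 4-OHT gave the medium for 3 libraries (control ATII CM), and the same line after 24 h with 4-OHT gave it for the other 3 (4-OHT ATII CM). The donor line carries the inducible RAS construct in both arms, and both the donor cells and the fibroblasts are single cultured lines. No source used here gives a control in which 4-OHT alone was added to fibroblasts, so an effect of drug carried over in the medium and an effect of factors from the ATII cells cannot be told apart. Nothing in the labels says that replicates came from separate cultures, and p values therefore measure the spread between these libraries, which may be technical.

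BMPs are secreted ligands of the TGF-β superfamily. They bring type I and type II receptor kinases together, which phosphorylate SMAD1, SMAD5 and SMAD9, and these enter the nucleus with SMAD4. The *ID* genes are among the best known direct targets, and their proteins bind E proteins and other helix-loop-helix factors and keep them from DNA. In the lung, inherited loss of BMPR2 function causes pulmonary arterial hypertension, and the antagonist encoded by *GREM1*, which traps BMP ligands outside the cell, has been studied in pulmonary fibrosis.

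The promoters of 4 of the genes that differed between the groups are shown first, since these genes rose together while their start regions differ in base composition and in the motifs they hold. Each stretch lies within the 250 bases before a RefSeq start site and outside the gene's exons in the deposited table, and is written 5′ to 3′ on the gene's strand, from the RefSeq sequence of GRCh38.p14. Capitals mark GGCGCC, a GC-rich motif known from BMP-responsive elements, CCAAT (or ATTGG on the other strand) and TATAAA (or TTTATA). In *ID1* the matches to TTTATA and TATAAA overlap. The stretch of *BMP4* lies between exons within the annotated span of the gene, and the other 3 lie before the gene's first annotated base.
*ID1*, chr20:31605039-31605282, plus strand: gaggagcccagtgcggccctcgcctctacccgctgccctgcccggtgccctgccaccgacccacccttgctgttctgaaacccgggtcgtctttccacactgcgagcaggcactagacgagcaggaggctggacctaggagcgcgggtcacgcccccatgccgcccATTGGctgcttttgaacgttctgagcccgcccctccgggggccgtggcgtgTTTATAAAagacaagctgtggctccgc
*BMP4*, chr14:53955051-53955300, minus strand: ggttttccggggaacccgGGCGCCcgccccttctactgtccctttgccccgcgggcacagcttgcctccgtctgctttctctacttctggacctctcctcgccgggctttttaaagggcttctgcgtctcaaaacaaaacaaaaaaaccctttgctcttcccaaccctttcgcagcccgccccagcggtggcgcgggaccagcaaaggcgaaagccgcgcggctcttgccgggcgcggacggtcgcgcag
*BMPR1A*, chr10:86755513-86755762, plus strand: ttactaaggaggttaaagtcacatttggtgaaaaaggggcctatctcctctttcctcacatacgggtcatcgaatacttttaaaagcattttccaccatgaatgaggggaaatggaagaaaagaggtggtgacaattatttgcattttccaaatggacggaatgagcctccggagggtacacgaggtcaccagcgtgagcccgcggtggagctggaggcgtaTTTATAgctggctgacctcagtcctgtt
*BAMBI*, chr10:28677271-28677341, plus strand: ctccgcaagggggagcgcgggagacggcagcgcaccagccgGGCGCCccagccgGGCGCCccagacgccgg

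Over the whole windows of 300 bases (250 before and 50 after a start), read on both strands, GGCGCC occurred in 4 of the 12 windows of the 9 genes (1 each of *BMP4*, *GREM1*, *BMPR2* and *BAMBI*) and in 19.2% of the 35116 RefSeq windows. *BMP4* has 3 windows, of which the printed one holds the motif and the others do not. CCAAT occurred in 5 of the 12 (*ID1*, *ID2*, *ID4*, *GREM1* and *BAMBI*) and in 34.6% of all windows, and TATAAA in 3 (*ID1*, *ID4* and *BMPR1A*) and 11.5%. The palindrome GTCTAGAC, another motif of SMAD binding, was in none of the 12 windows of these genes and in 0.202% of all windows. The GC content of the printed stretches was 66.4% for *ID1*, 63.6% for *BMP4*, 47.2% for *BMPR1A* and 83.1% for *BAMBI*. These matches are descriptions of letters and were not tested against the expression values. Bases outside the windows were not read, so the counts do not say whether a gene has such a motif farther from its start. The start region of *ID3* lies wholly, and that of *ID2* mostly, within annotated exons, and neither is printed.

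Library totals ranged from 17691849 to 26389449 counts. The first principal component of all abundant genes (43.4% of the variance) separated the groups. The second (23.3%) set control replicate 2 apart from the other libraries, and each result below is therefore also given without it where it mattered. All 9 fibroblast markers were measured, led by *COL1A1* with a mean of 7124.3 TPM (transcripts-per-million, from counts per base of exon). Their summed level was 17996.2 to 19647.0 TPM in control ATII CM and 19158.3 to 19395.7 TPM in 4-OHT ATII CM. By edgeR 4 of them were called higher, with folds like those of the BMP and *ID* genes described below, namely *DCN* (1.26-fold, adjusted p = 2.66e-06), *LUM* (1.22-fold, 3.99e-05), *PDGFRA* (1.16-fold, 0.00343) and *COL3A1* (1.13-fold, 0.000463). *VIM* was called lower (0.933-fold, 0.0414), a call made in 8 of 14 alternatives, and the other 4, *COL1A1* among them (0.938-fold, 0.0861), were not called. *COL1A1* was called lower in 5 of 14 alternatives and *COL1A2* (0.99-fold, 0.888) in 1. The part of these markers in the results was not tested. Of 10 epithelial and ATII markers, 5 had fewer than 10 counts over all libraries, with 1 count for *SFTPC*, 4 for *CDH1* and 0 for *SFTPA1* and *NKX2-1*. The epithelial sum, carried mostly by *KRT18* and *KRT8*, was 99.0 to 105 TPM in control ATII CM and 90.9 to 103 TPM in 4-OHT ATII CM. The endothelial markers *PECAM1* and *CDH5* were at 0 in every library, with a summed level over 5 endothelial markers of 0.245 to 0.299 TPM and 0.175 to 0.294 TPM. Of 5 leukocyte markers only *CD14* passed the filter, the summed level was 1.32 to 2.04 TPM and 2.36 to 4.01 TPM, and *PTPRC* had 2 counts. *CD14* had 12, 16 and 19 counts with control ATII CM against 23, 38 and 49 counts with 4-OHT ATII CM, without overlap, and was not called (1.95-fold, edgeR adjusted p = 0.0597), but it was called higher in 3 of 14 alternatives. Its part in the results was not tested.

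In 4-OHT ATII CM, 6 of the 9 genes were called higher by edgeR (*ID1*, *ID2*, *ID3*, *BMP4*, *BMPR1A* and *BAMBI*), where a call is an adjusted p below 0.05. No member was called lower by edgeR, DESeq2 or limma-voom, and 0 members were lower at an unadjusted p below 0.05 in edgeR. Over all 19072 genes tested, 2.95% were called higher and 2.76% lower. Abundant genes are called more often, and among the 9202 genes with a mean of at least 10 CPM (counts-per-million, normalized by TMM) the shares were 5.54% higher and 4.66% lower. The members hold 7 such genes, which include the 6 called. Because the members were chosen with earlier results of these data known, these shares are given as a description. Of the 9 members, 6 did not overlap between the groups, all with 4-OHT ATII CM above, and 3 overlapped. Of all genes tested, 22.1% did not overlap, 11.7% with 4-OHT ATII CM above and 10.4% with it below. The 6 are the called genes, and call and overlap come from the same values. The changes were small, with fold changes between 1.12 and 1.28 for the called genes. Their log2 fold changes had a median of 0.229 over the 9, beside -0.002 over all genes tested. In bulk RNA a change in the number of cells that express a gene and a change in the amount of its RNA per cell cannot be told apart.

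Among the target genes, *ID1* (1233 bases of exon on chromosome 20, 31605283 to 31606515, GRCh38) encodes an inhibitor of E proteins that is induced within hours of BMP exposure. Its level was 57.1, 67.8 and 64.1 CPM in replicates 1, 2 and 3 of control ATII CM and 73.9, 73.1 and 74.1 CPM in those of 4-OHT ATII CM. Every library with 4-OHT ATII CM stood above the highest control, replicate 2, and these lay much closer together (73.7 ± 0.525, SD, n = 3) than the controls did (63.0 ± 5.43). The rise was 1.17-fold (95% interval 1.09 to 1.26, log2 fold change 0.23 with SE 0.0511, edgeR adjusted p = 0.0135). This call was lost when control replicate 1 (adjusted p = 0.0566), 4-OHT replicate 2 (0.0591) or 4-OHT replicate 3 (0.0614) was left out.

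*ID2* (chromosome 2, 8678845 to 8684453) had the largest fold change of the 9 with all 6 libraries. The log2 fold change of *BMP4* was larger without control replicate 1 (0.351 against 0.325) and without 4-OHT replicate 1 (0.366 against 0.346). In control ATII CM the 3 libraries gave 54.7, 61.0 and 56.2 CPM for *ID2*, and in 4-OHT ATII CM they gave 75.2, 73.4 and 71.6 CPM. The groups were far apart relative to their spread, at 57.3 ± 3.27 and 73.4 ± 1.81 CPM (SD, n = 3 each). By edgeR the fold was 1.28 (95% interval 1.2 to 1.37, log2 fold change 0.36, adjusted p = 0.000165), and the gene ranked 80 by p among all genes tested. Its exons share 38 bases with *ID2-AS1* on the opposite strand, which had 45 counts over all libraries against 8889 for *ID2*.

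*ID3* (chromosome 1, 23557918 to 23559794, minus strand), which is often induced together with *ID1*, was measured at 93.5, 113 and 94.8 CPM in control ATII CM. With 4-OHT ATII CM the values were 126, 119 and 127 CPM. Control replicate 2 was again the highest control, and the lowest library of 4-OHT ATII CM, replicate 2, was only slightly above it. The edgeR fold was 1.24 (95% interval 1.14 to 1.35, log2 fold change 0.31, adjusted p = 0.00451).

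*ID4* (chromosome 6, 19837386 to 19840684), the least expressed of the family here, had 590 counts in all. Levels were 4.5, 3.86 and 3.71 CPM in control ATII CM and 4.84, 4.25 and 4.91 CPM in 4-OHT ATII CM. The groups overlapped, as control replicate 1 was above 4-OHT replicate 2, and the gene was not called (edgeR log2 fold change 0.21, 95% interval -0.07 to 0.50, adjusted p = 0.469). That interval holds both no change and the changes measured for *ID1*, *ID2* and *ID3*. Per length and summed over *ID1* to *ID4*, the family stood at 515, 597 and 536 TPM in control ATII CM and at 684, 644 and 670 TPM in 4-OHT ATII CM, a ratio of means of 1.21 (549 ± 42.4 against 666 ± 20.2 TPM, SD, n = 3 each).

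**Figure D1:**
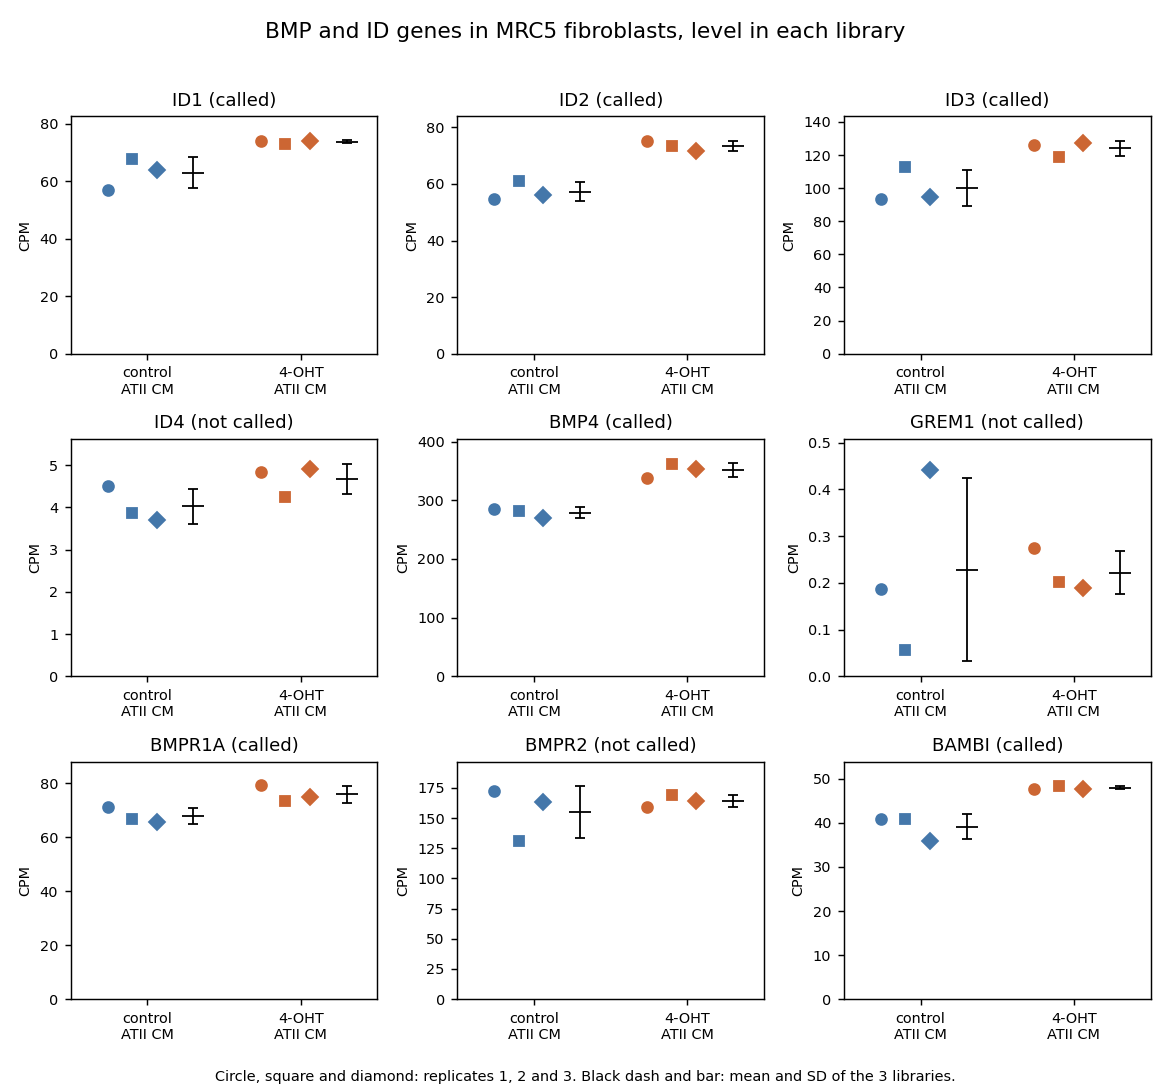
Level of each of the 9 genes in CPM (vertical axes, each from 0) in the 3 libraries of control ATII CM (blue) and the 3 of 4-OHT ATII CM (orange). Symbols are replicates, and black bars are the mean and SD of 3 libraries. In the 6 called genes every orange point is above every blue one, while *ID4*, *GREM1* and *BMPR2* overlap.

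*BMP4* (chromosome 14, 53949736 to 53958761, minus strand) encodes the ligand, and was the most abundant of the 9 genes. It was at 285, 282 and 269 CPM in control ATII CM and at 338, 361 and 354 CPM in 4-OHT ATII CM. The lowest library of 4-OHT ATII CM was well above the highest control. The rise was 1.26-fold (95% interval 1.2 to 1.33, log2 fold change 0.34 with SE 0.036, edgeR adjusted p = 4.6e-05), with the smallest p of the 9 and rank 42 over all genes.

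The other ligands in a list of 13 BMP and GDF genes were measured for comparison. Of the 12 besides *BMP4*, 3 (*BMP7*, *BMP10* and *GDF2*) had fewer than 10 counts. Both *BMP2* (29.0, 29.4 and 29.2 CPM against 37.5, 36.0 and 37.8 CPM, 1.27-fold, adjusted p = 0.000428) and *BMP5* (17.9, 15.1 and 17.3 CPM against 21.3, 23.0 and 22.3 CPM, 1.32-fold, adjusted p = 0.00321) were called higher by edgeR. *GDF5*, a ligand of joint development, was called lower, at 8.2, 9.46 and 8.6 CPM against 6.17, 6.3 and 5.25 CPM (0.675-fold, adjusted p = 0.00502). Exons of *GDF5* share 932 bases with the opposite-strand *GDF5-AS1*, which had 17 counts over all libraries. Per length, *BMP4* had a mean of 416 TPM over the 6 libraries, *BMP2* 37.5 TPM and *BMP5* 20.1 TPM. The sum of these ligands was 433, 419 and 405 TPM in control ATII CM and 517, 534 and 531 TPM in 4-OHT ATII CM (ratio of means 1.26).

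*GREM1* (chromosome 15, 32717974 to 32745107), the secreted antagonist, was near the detection limit. It had 4, 1 and 10 counts in control ATII CM and 6, 5 and 5 counts in 4-OHT ATII CM, 31 counts in all over 14606 bases of exon. The groups overlapped, with the lowest and the highest library both among the controls, and the interval of the difference was wide (edgeR log2 fold change -0.12, 95% interval -1.43 to 1.19, adjusted p = 0.951). A change within this interval (0.371- to 2.28-fold) was not detectable at this depth. Its sign was not stable, since the log2 fold change was 0.155 with limma-voom and 0.760 without control replicate 3.

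Of the 16 other secreted antagonists and modulators, 12 were tested and 4 had fewer than 10 counts. Called changes among these went both ways. *FST*, which encodes follistatin, an antagonist of activins and of some BMPs, fell from 412, 444 and 432 CPM to 330, 349 and 338 CPM (0.79-fold, edgeR adjusted p = 3.7e-05). *CRIM1*, whose product binds BMPs at the cell surface, fell from 643, 634 and 631 CPM to 586, 547 and 568 CPM (0.891-fold, adjusted p = 0.00454). Higher levels were called for *FSTL1*, a secreted glycoprotein and the most abundant gene of this list at 1211.8 TPM (1.12-fold, adjusted p = 0.000672), and for *NBL1*, a DAN family antagonist (1.13-fold, adjusted p = 0.00873). The call of *NBL1* was lost without control replicate 3 (0.0653) or 4-OHT replicate 2 (0.0574). *NBL1* also shares 131 bases of exon with *MICOS10* and 552 with *MICOS10-NBL1*, both on the same strand.

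*BMPR1A* (chromosome 10, 86756601 to 86932838), the type I receptor that phosphorylates the BMP SMADs, showed the smallest called change of the 9. It was at 71.0, 66.8 and 65.5 CPM in control ATII CM and at 79.2, 73.3 and 74.8 CPM in 4-OHT ATII CM. The groups did not overlap, but the highest control, replicate 1, and the lowest library of 4-OHT ATII CM, replicate 2, were close. The fold was 1.12 (95% interval 1.05 to 1.19, edgeR adjusted p = 0.0416). This call was lost with DESeq2 (adjusted p = 0.0621), with library totals alone (0.0598), and without control replicate 3 (0.226), 4-OHT replicate 1 (0.155), 4-OHT replicate 2 (0.0750) or 4-OHT replicate 3 (0.124).

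*BMPR2* (chromosome 2, 202376936 to 202567751), the type II partner, was at 172, 131 and 163 CPM in control ATII CM and at 159, 169 and 164 CPM in 4-OHT ATII CM. Control replicate 2 stood far below the other 5 libraries, which overlapped. The gene was not called (edgeR log2 fold change 0.078, 95% interval -0.07 to 0.23, adjusted p = 0.631), and without control replicate 2 the log2 fold change was -0.03 (adjusted p = 0.776).

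Of the 11 other receptors and co-receptors, 10 were tested. *ACVRL1*, a type I receptor for BMP9 and BMP10 best known from endothelium, was called higher (42.8, 44.1 and 44.1 CPM against 49.7, 50.2 and 49.2 CPM, 1.14-fold, edgeR adjusted p = 0.012). Its call was lost without control replicate 1 (0.053), 4-OHT replicate 2 (0.0652) or 4-OHT replicate 3 (0.0553). *RGMB*, a co-receptor of BMP2 and BMP4, was called lower (58.3, 60.4 and 59.3 CPM against 50.4, 46.4 and 52.4 CPM, 0.839-fold, adjusted p = 0.00363). Its exons share 363 bases with the opposite-strand *RGMB-AS1* (1530 counts over all libraries). They share 2682 bases with another opposite-strand gene, which had 15 counts. *ENG*, the most abundant of these at 268 TPM, was not called (0.986-fold, 95% interval 0.938 to 1.04, adjusted p = 0.824).

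*BAMBI* (chromosome 10, 28677342 to 28682939) encodes a membrane protein that resembles a type I receptor but lacks the kinase, and it is both a target and an inhibitor of BMP and TGF-β signaling. Its level was 40.9, 40.8 and 36.0 CPM in control ATII CM and 47.8, 48.4 and 47.7 CPM in 4-OHT ATII CM. Each library of 4-OHT ATII CM was above every control, and the 3 were nearly alike (48.0 ± 0.382 against 39.2 ± 2.8 CPM, SD, n = 3 each). It rose 1.22-fold (95% interval 1.14 to 1.32, log2 fold change 0.29, edgeR adjusted p = 0.00268).

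In the list of 13 signal transducers and intracellular inhibitors that holds *BAMBI*, the called genes were *BAMBI*, *SMAD7* and *SMAD9*, all higher. *SMAD7*, the general inhibitory SMAD, was at 38.0, 44.4 and 40.7 CPM against 51.7, 53.8 and 56.3 CPM (1.32-fold, edgeR adjusted p = 0.000336). *SMAD9*, a BMP receptor substrate that is itself a target, was at 35.1, 34.9 and 37.2 CPM against 49.6, 48.8 and 47.3 CPM (1.36-fold, adjusted p = 3.7e-05). The other receptor substrates were not called, with log2 fold changes of 0.095 for *SMAD1* and 0.014 for *SMAD5* (adjusted p = 0.688 and 0.932). *FKBP1A*, which encodes the immunophilin that holds type I receptors inactive and was the most abundant of the list at 520 TPM, was not called either (0.983-fold, 95% interval 0.937 to 1.03, adjusted p = 0.774).

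Of 12 direct BMP target genes, which include the 4 *ID* genes, *BAMBI*, *SMAD7* and *SMAD9*, 6 were called higher. Their log2 fold changes had 0.221 as the median over all 12. A mean of at least 10 CPM was reached by 9 of the 12, and 5.54% of all genes that abundant were called higher. The called *ID1*, *ID2*, *ID3* and *BAMBI* are among the 9 genes described above, so this count is not separate from theirs. Of the 7 that are not among the 9 genes, *SMAD7* and *SMAD9* were called. The other 5 were not, with log2 fold changes of 0.21 for *ATOH8* (edgeR adjusted p = 0.0544), 0.12 for *SMAD6* (0.194), 0.20 for *MSX1* (0.483), -0.25 for *MSX2* (0.0719) and -0.26 for *HEY1* (0.737). These calls depended on the processing. Over the alternatives the adjusted p reached 0.215 for *ATOH8*, 0.540 for *SMAD6* and 0.270 for *MSX2*, while *ATOH8* and *SMAD6* were called higher without control replicate 2 (0.0426 and 0.0213), *ATOH8* also without 4-OHT replicate 3 (0.0305), and without a filter on low counts *ATOH8* was called higher (0.00898) and *MSX2* lower (0.0241).

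All lists of the pathway together hold 55 genes besides the 9, of which 47 were tested, 8 were called higher and 4 lower, with a median log2 fold change of 0.071. The share of all genes called in either direction was 5.72%. The lists were drawn up with earlier results of these data known, and nothing is inferred from them beyond the counts.

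**Figure D2:**
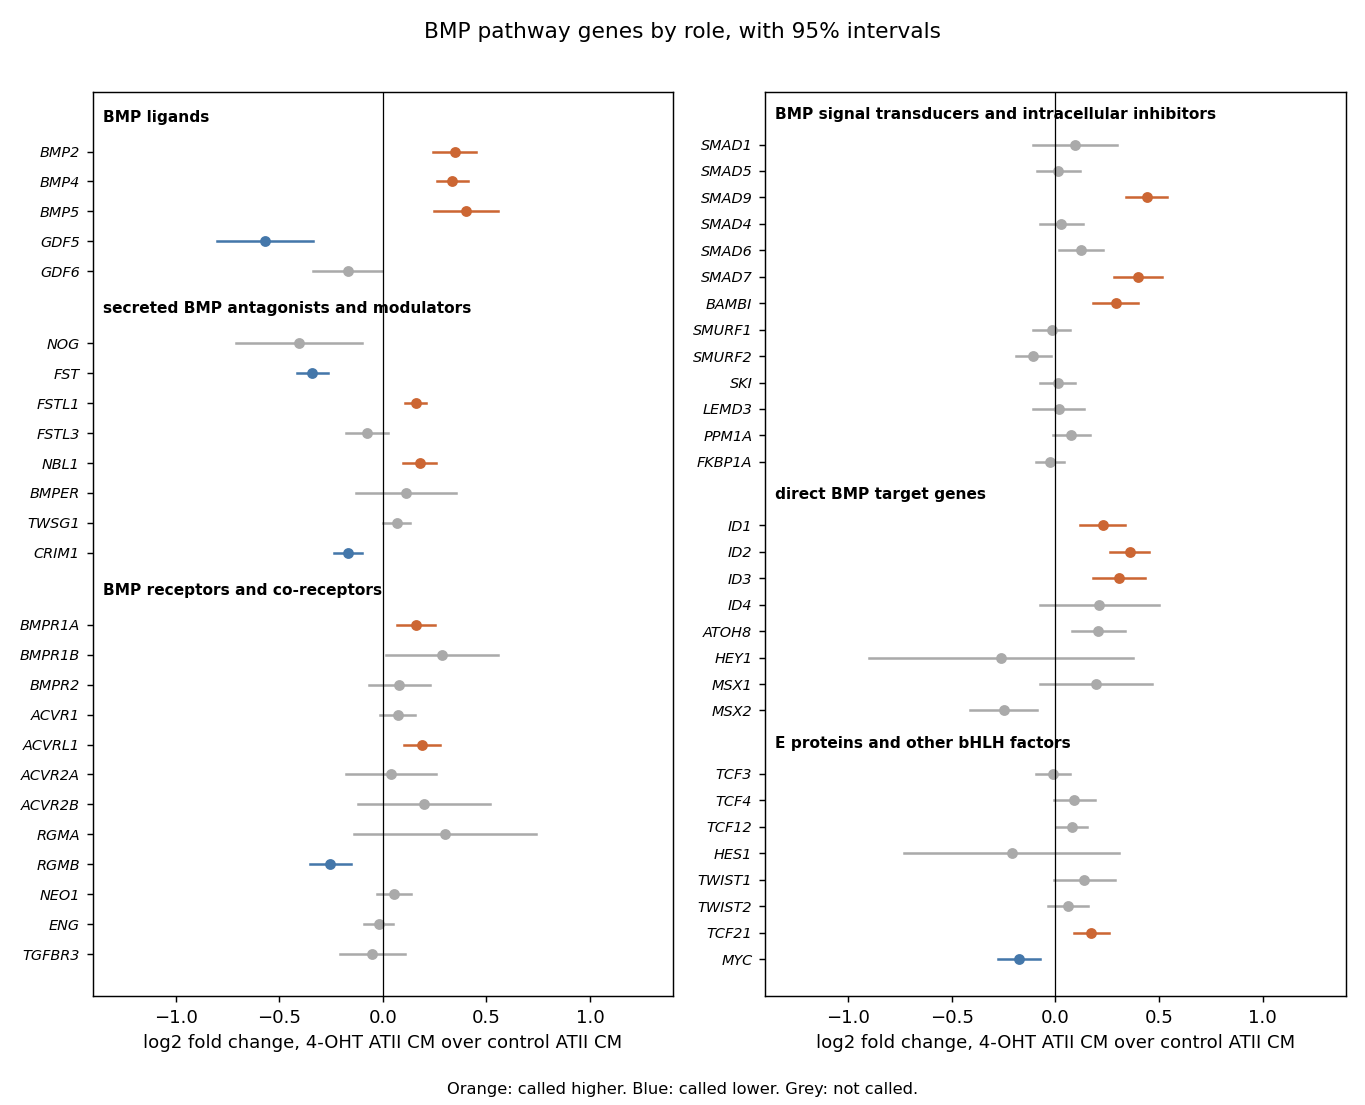
Log2 fold change of 4-OHT ATII CM over control ATII CM (horizontal axes) with its 95% interval for 54 genes of the BMP pathway and of the helix-loop-helix list with a mean of at least 1 CPM, grouped by role. Orange genes were called higher and blue genes lower by edgeR, and grey genes were not called. The plot shows called genes on both sides of 0 among ligands, antagonists and receptors, and, among transducers and direct targets, only above 0.

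A list of 8 helix-loop-helix genes was looked at beside the *ID* genes. The E protein genes *TCF3*, *TCF4* and *TCF12*, whose products are the main ID partners, were not called. *TCF21*, a factor of lung mesenchyme, was called higher (61.4, 62.3 and 60.5 CPM against 67.3, 71.8 and 68.4 CPM, 1.13-fold, edgeR adjusted p = 0.0158). Its exons share 1383 bases with the opposite-strand *TARID*, and its call was lost without control replicate 3 (0.0935), 4-OHT replicate 2 (0.0994) or 4-OHT replicate 3 (0.0603). *MYC*, whose product dimerizes with MAX and is not a dimerization partner of ID proteins, was called lower (0.885-fold, adjusted p = 0.0379) in a call lost in 8 of 14 alternatives, among them DESeq2 (0.105). *TWIST2* was the most abundant of the list at 97.5 TPM and was not called (1.04-fold, 95% interval 0.976 to 1.12).

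Per length, the 9 genes fell in the order *BMP4* (416 TPM), *ID3* (254), *ID1* (226), *ID2* (121), *BAMBI* (76.7), *BMPR2* (54.6), *BMPR1A* (25.6), *ID4* (7.55) and *GREM1* (0.0627), as means over 6 libraries. Within each of the 6 libraries every gene was above the next one in this order. The closest neighbours were *ID3* and *ID1*, which were nearly equal in control replicate 3 (215 and 212 TPM) and farther apart in 4-OHT replicate 1 (289 and 247 TPM). The type II receptor gene was thus above the type I receptor gene in every library, by 59.4 against 25.6 TPM in control replicate 1 and by 55.1 against 28.5 TPM in 4-OHT replicate 1.

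**Figure D3:**
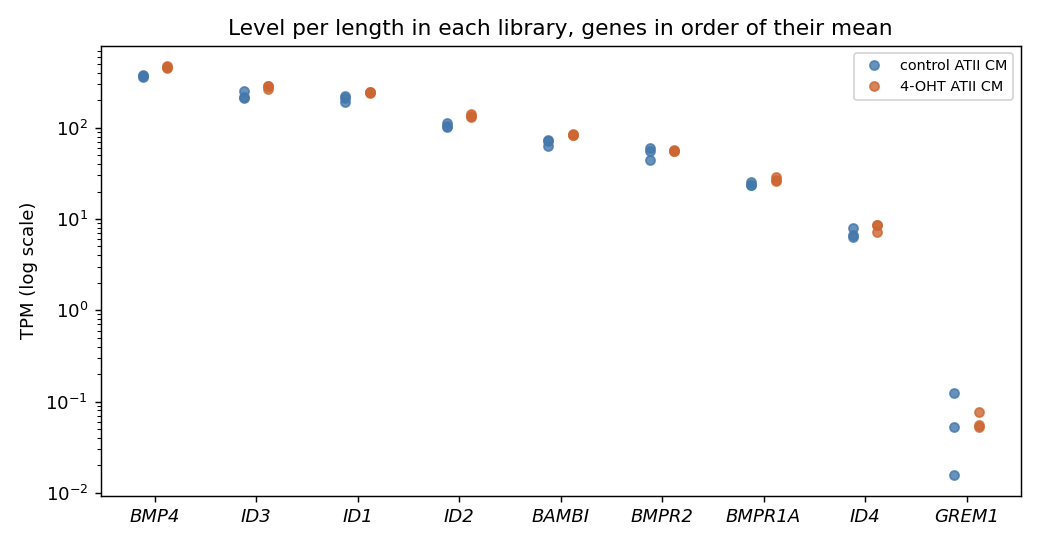
Level per length in TPM (vertical axis, log scale) of the 9 genes in each library, ordered by their mean over 6 libraries, with control ATII CM in blue and 4-OHT ATII CM in orange. The levels run from 416 TPM for *BMP4* to 0.0627 TPM for *GREM1*, and the order is the same in both groups.

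Leaving out control replicate 2 changed the members unequally. That library had the highest *ID1*, *ID2* and *ID3* levels and the lowest *BMPR2* level of the controls. Without it, the log2 fold changes by edgeR were 0.28 for *ID1* (adjusted p = 0.000388), 0.40 for *ID2* (2.41e-06) and 0.40 for *ID3* (1.67e-06). *BMP4* (0.34, adjusted p = 2.62e-06), *BAMBI* (0.32, 0.000555) and *BMPR1A* (0.15, 0.0414) were nearly as before. The 6 genes called with all libraries were also the 6 called without this one.

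**Figure D4:**
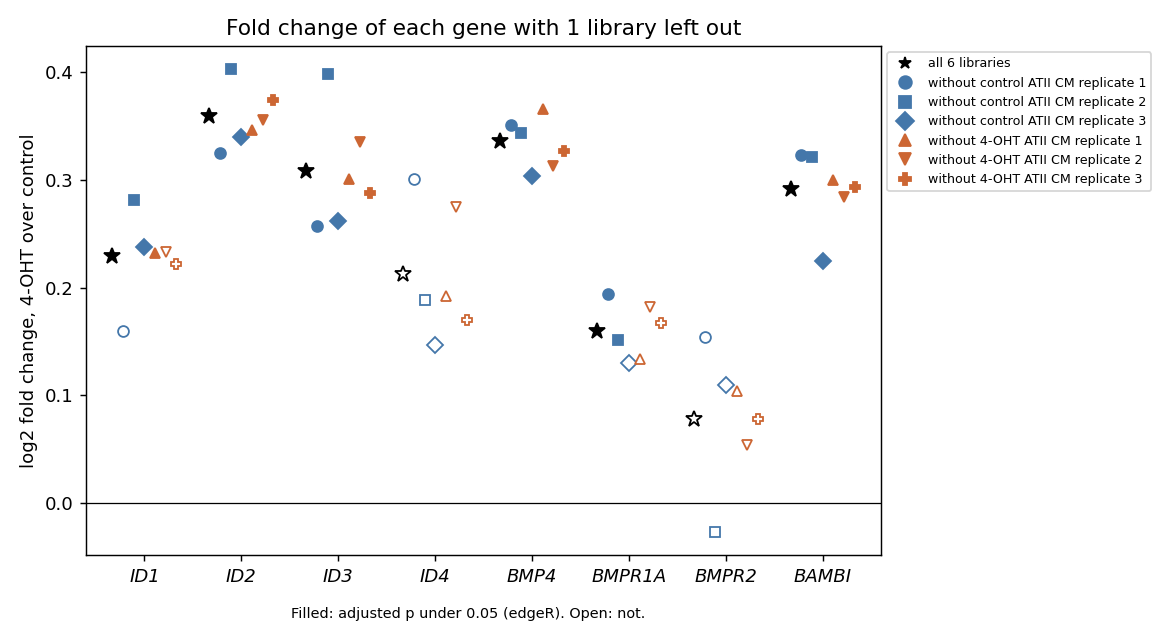
Log2 fold change of 4-OHT ATII CM over control ATII CM (vertical axis) for 8 of the genes with all 6 libraries (star) and with each library left out in turn (other symbols, blue for controls, orange for 4-OHT ATII CM). Filled symbols have an edgeR adjusted p below 0.05. *ID2*, *ID3*, *BMP4* and *BAMBI* are filled throughout, *ID1* and *BMPR1A* in part, and *BMPR2* is below 0 only without control replicate 2. *GREM1* is not drawn.

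The profiles of the called genes were compared with those of 9195 other genes of at least 10 CPM, by the root-mean-square difference of centred log2 CPM over the 6 libraries, where 0 is an identical profile. Nearest to *ID1* were *PRRX2* (0.0298), *CEBPD* (0.036) and *ARSI* (0.0365). For *ID2* they were *PLPP1* (0.0186), *PRKAR2B* (0.0241) and *GBP2* (0.0366). For *ID3*, with the most scattered controls of the *ID* genes called, even the nearest were farther off, namely *MINPP1* (0.0495), *LMCD1* (0.0566) and *APOE* (0.0619). The profile of *BMP4* was nearest to *ADAMTS8* (0.022), *RDH10* (0.0255) and *DCN* (0.0281). *BMPR1A* was nearest to *PLPP6* (0.018), *MME* (0.0208) and *GPR161* (0.0219), and *BAMBI* to *CCDC170* (0.0292), *ATF3* (0.0354) and *ZBTB5* (0.0362). Between members the smallest difference was that of *BMP4* and *BAMBI* (0.0478), followed by *ID2* and *ID3* (0.0619). These values rest on 6 libraries that share 1 group difference and are given as a description.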

How the data were processed

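RNA-Seq counts of MRC5 cells in control ATII CM (n = 3) and 4-OHT ATII CM (n = 3) were used, with groups taken from the sample labels. Per the labels and the methods, the authors used Trim Galore for trimming, HISAT2 2.1.0 for mapping to GRCh38 and featureCounts 1.6.5 for counting, and deposited raw counts per gene that were not normalized. The annotation release, the strand setting and the treatment of reads with several hits are not given in the sources used here, so counts of genes that share exon bases are less certain. The table has 58721 lines for 58676 identifiers, and the counts of 45 identifiers that stand on 2 lines each were summed. Symbols came from GENCODE release 44.

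Genes with at least 10 summed counts (19072) were tested with edgeR 4.0.16 (R 4.3.3), using TMM factors, its quasi-likelihood test on group alone and Benjamini-Hochberg adjustment over all genes at 0.05. The square root of the common dispersion was 4.36%. CPM used TMM-normalized totals, log2 CPM a prior count of 2, and TPM the exon lengths in the table. Intervals are 95%. DESeq2 1.42.0, limma 3.58.1 (voom), other factors and filters, a replicate block and leaving out each library were the alternatives. The tests were checked on simulated counts. Named were all 9 members, every called gene and the most abundant gene of each pathway list, the 3 nearest profiles of each called member, and marker genes, except that an item under this rule is not reported here. Genes of these lists that were not called and are named besides were chosen after their values were seen. Members and lists were chosen with earlier results of these data known. At totals of 17691849 to 26389449 counts, counting error was large for *GREM1* and smaller for the more abundant genes. Near 10 CPM it is not negligible beside the small fold changes reported.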

Additional observations from a re-analysis of the deposited data

How the results depend on the processing

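Calls of *ID2*, *ID3*, *BMP4* and *BAMBI* were made in 14 of 14 alternatives, with highest adjusted p values of 0.00294, 0.0386, 0.0014 and 0.0243, and those of *ID1* and *BMPR1A* in 11 and 8. The number of members called higher was 6 with all libraries, 5 with DESeq2 or library totals alone, and 4 to 6 when 1 library was left out. For the other pathway genes, leaving out 1 library gave 6 to 10 called higher. Over all genes, 563 were called higher and 527 lower. Without a filter on low counts 875 were called higher. Leaving out 1 library gave 289 to 696 higher, lowest without 4-OHT replicate 2 and also low without control replicate 3 (324) or 4-OHT replicate 3 (315). The range for lower calls was 244 to 834, highest without control replicate 2. No called gene of the pathway or helix-loop-helix lists turned sign in any alternative. Among genes not called, log2 fold changes that turned sign were those of *GREM1* with limma-voom (0.155) and when 1 library was left out (-0.52 to 0.760, above 0 without control replicate 3), *BMPR2* (-0.027 to 0.154, below 0 without control replicate 2) and *ENG* (-0.039 to 0.005, above 0 without 4-OHT replicate 1). The same held, over all alternatives, for *SMAD1* (-0.01 to 0.16), *SMAD5* (-0.02 to 0.07) and *TCF3* (-0.05 to 0.01), and for *BMP6*, *BMP8A*, *GDF7*, *CHRDL1*, *CHRDL2*, *ACVR2A*, *SMAD4*, *SMURF1*, *SKI*, *LEMD3* and *HES1*. The cause was not tested. *GREM1* has no value with filterByExpr, which removed it.

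The replicate numbers 1 to 3 are shared by the groups in the labels, but the counts showed no pairing by number. Deviations from the group means correlated across 9691 genes with r = -0.0145, -0.104 and -0.0931 between same-numbered libraries. The highest r between any control and any 4-OHT library was 0.161, for control replicate 3 and 4-OHT replicate 2. These values do not say how cultures or media were matched. With the replicate block 502 genes were called higher and 483 lower, 6 members were called higher, 8 other pathway genes higher and 4 lower, and *MYC* lost its call (adjusted p = 0.0621). Depth limits *GREM1* and, less so, *ID4*.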

Other observations

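Of the 47 other BMP pathway genes tested, 14 had all libraries of 4-OHT ATII CM above all controls and 6 had them below, while 22.1% of all genes tested did not overlap in either direction. These 20 include the 12 called genes and 8 that were not called, which are named here after their values were seen. *NOG*, which encodes the BMP antagonist noggin, was at 6.89, 5.99 and 5.16 CPM in control ATII CM and at 4.7, 3.81 and 5.1 CPM in 4-OHT ATII CM (log2 fold change -0.40, 95% interval -0.71 to -0.10, edgeR adjusted p = 0.131). *MSX2*, a homeobox target of BMP signaling, was at 20.1, 21.2 and 23.1 CPM against 16.4, 19.0 and 18.7 CPM (adjusted p = 0.0719). The other 6 had higher values in 4-OHT ATII CM, and they were *ATOH8* (26.8, 27.3 and 26.2 against 32.5, 32.0 and 28.5 CPM, adjusted p = 0.0544), *SMAD6* (0.194), *TWSG1* (0.261), *PPM1A* (0.372), *ACVR1* (0.409) and *RGMA* (0.514).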
